A study of Homo sapiens with 26 samples.

Results

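DNMT3B is a DNA methyltransferase that sets new methyl marks on CpG sites, and 2631 of its 15909 binding peaks in HCT116 cells (16.5%, 95% Wilson interval 16.0% to 17.1%) lay in the first 30% of a gene. A peak was taken when it was under 10000 bp wide and its midpoint fell within the first 30%, read 5′ to 3′, of the longest named transcript of at least 2000 bp that held it. The position and the width limit of the peak alone made this choice, and its score and the expression of its gene were not used. These 2631 peaks lay in 1797 genes, called host genes here. The 14600 peaks that could be placed in this way also included 6286 in the middle (30% to 70%) and 5683 in the last 30% of their transcripts, and these serve for comparison. Of the remaining peaks, 841 were 10000 bp or wider, 99 of which would have been in the first 30%, and 468 lay outside named transcripts. All intervals on shares cover counting error only.

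HCT116 is a human colorectal cancer cell line with epithelial features. Peaks came from ChIP-seq with a FLAG antibody on 2 lines with stable FLAG-DNMT3B, beside 3 FLAG-ZBTB24 and 2 FLAG-only lines, each with an input library. RNA-seq covered 3 shZBTB24 libraries (a hairpin against ZBTB24) with 3 shNT libraries (a hairpin with no target), 2 FLAG-ZBTB24 with 2 FLAG-only libraries, and 1 DNMT3B genetic knockout (3BKO) with 1 wild-type library that carried no tag or hairpin. The FLAG lines and hairpin lines were made with lentivirus and puromycin, and each FLAG line was grown from 1 cell, so differences between clones cannot be told apart from those between groups. FLAG-DNMT3B was added by lentivirus to cells that have their own DNMT3B gene, so peaks show where the added protein lay. The authors merged the peaks of the 2 lines into 1 list, so no peak has a value per library and no spread between lines can be given.

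DNMT3B has a PWWP domain, which binds the histone mark H3K36me3, and an ADD domain, which binds histone H3 tails whose lysine 4 carries no methyl group. H3K36me3 is laid down along the body of transcribed genes, while active promoters carry H3K4me3 and usually hold unmethylated CpG islands. In the human disorder ICF syndrome (immunodeficiency, centromeric instability and facial anomalies), mutations lie in DNMT3B, ZBTB24 (a zinc finger transcription factor), CDCA7 or HELLS.

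The start of the transcript itself was nearly free of these peaks. Of the 2631 peaks, 5 covered the start of their host transcript, in MGC27345, NPIPB6, SLFNL1-AS1, ARMC9 and LOC613037. RefSeq promoters (GRCh38.p14, 250 bases before to 50 bases after a gene's start) were at hand for SLFNL1-AS1, ARMC9 and NPIPB6, and are shown to let a reader see what sequence stands at the few starts with a peak. The start in that table may belong to another transcript of the gene than the one used here. Its coordinates are not those of the peaks, which are on hg19. Whether a peak covered the promoter sequence shown was therefore not checked. Capitals mark each CG, which reads the same on both strands.
SLFNL1-AS1 promoter, chr1:41014340-41014639 (+ strand): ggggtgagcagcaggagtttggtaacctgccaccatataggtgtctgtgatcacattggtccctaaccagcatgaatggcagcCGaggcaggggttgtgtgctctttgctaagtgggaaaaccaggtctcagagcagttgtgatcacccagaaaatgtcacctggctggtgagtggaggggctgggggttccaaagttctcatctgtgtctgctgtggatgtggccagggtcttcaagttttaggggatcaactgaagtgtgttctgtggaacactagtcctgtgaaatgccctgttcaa
ARMC9 promoter, chr2:231198381-231198680 (+ strand): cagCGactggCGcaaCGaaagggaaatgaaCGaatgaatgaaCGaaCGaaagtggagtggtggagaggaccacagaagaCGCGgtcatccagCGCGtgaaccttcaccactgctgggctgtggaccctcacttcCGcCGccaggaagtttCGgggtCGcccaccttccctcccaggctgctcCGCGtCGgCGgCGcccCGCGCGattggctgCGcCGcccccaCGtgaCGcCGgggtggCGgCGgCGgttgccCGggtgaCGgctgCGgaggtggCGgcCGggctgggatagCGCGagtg
NPIPB6 promoter, chr16:28364731-28365030 (- strand): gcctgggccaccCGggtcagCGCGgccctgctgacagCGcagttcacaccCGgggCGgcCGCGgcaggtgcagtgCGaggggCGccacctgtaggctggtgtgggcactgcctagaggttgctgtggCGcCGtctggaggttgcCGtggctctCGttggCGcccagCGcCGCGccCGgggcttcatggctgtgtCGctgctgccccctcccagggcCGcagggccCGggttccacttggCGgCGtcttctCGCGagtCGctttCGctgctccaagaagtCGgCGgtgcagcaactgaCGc
The SLFNL1-AS1 promoter held 1 CG, the ARMC9 promoter 37 and the NPIPB6 promoter 31. Next come promoters of host genes whose peaks were among the 10 with the highest scores and lay farther inside the gene.
PDHX promoter, chr11:34916188-34916487 (+ strand): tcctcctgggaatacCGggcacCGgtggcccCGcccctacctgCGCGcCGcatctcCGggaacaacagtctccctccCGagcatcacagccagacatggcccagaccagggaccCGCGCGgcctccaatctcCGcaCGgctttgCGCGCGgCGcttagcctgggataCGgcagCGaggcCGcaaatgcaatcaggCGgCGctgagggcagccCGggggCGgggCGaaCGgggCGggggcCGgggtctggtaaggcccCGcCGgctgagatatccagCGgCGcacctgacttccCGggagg
CDK12 promoter, chr17:39461236-39461535 (+ strand): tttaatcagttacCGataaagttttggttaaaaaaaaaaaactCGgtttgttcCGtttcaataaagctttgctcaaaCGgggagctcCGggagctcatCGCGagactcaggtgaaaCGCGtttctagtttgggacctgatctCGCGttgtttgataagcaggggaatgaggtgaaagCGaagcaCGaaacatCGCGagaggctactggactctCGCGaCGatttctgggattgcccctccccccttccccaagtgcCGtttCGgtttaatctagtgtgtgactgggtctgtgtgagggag
CCT2 promoter, chr12:69585209-69585508 (+ strand): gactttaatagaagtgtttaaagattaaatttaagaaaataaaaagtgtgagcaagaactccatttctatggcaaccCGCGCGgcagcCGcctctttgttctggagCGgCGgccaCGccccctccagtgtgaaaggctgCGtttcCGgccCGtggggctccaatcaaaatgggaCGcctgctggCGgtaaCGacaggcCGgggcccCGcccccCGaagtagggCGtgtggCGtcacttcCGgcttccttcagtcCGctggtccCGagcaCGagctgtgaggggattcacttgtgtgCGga
The PDHX promoter held 33 CG, the CDK12 promoter 20 and the CCT2 promoter 23. Over all 27305 promoters of that table, 95.7% held at least 1 CG, and the median was 13 (interquartile range 3 to 28). The table matched 1372 of the 1797 host genes (76.3%) and 15074 of all 22094 named genes (68.2%), too few for a comparison of promoter composition between them.

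DNMT3B peaks became more frequent along the first 30% and beyond it. With transcripts divided into stretches of 10% of their length, the 3 stretches from the start held 468, 969 and 1194 peaks. The following 7 stretches held 1349, 1518, 1598, 1821, 1940, 1982 and 1761. The stretch at the start thus held 3.21% of placed peaks (2.93% to 3.50%) and the last but 1 held 13.6% (13.0% to 14.1%). Equal spread along transcripts would put 10% in each, and all 3 stretches of the first 30% held less than that.

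**Figure D1:**
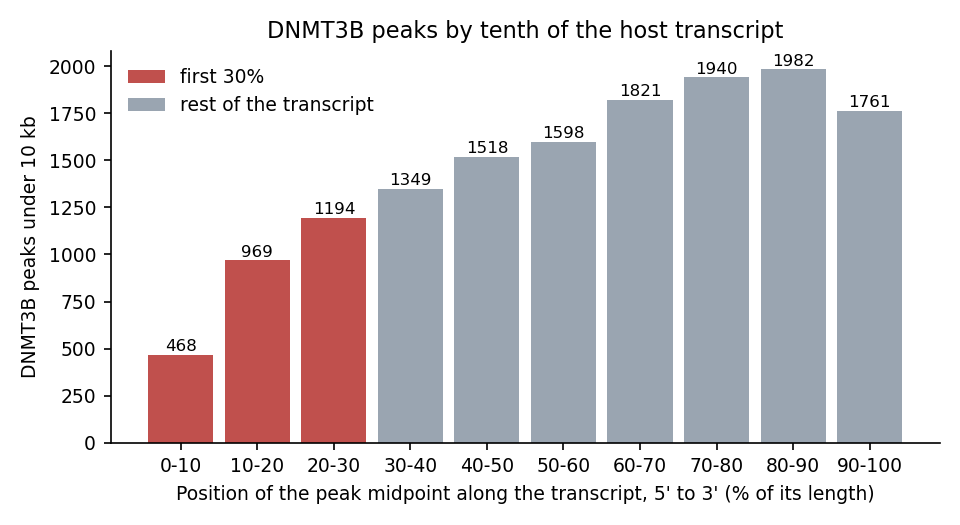
DNMT3B peaks under 10 kb (y axis, number of peaks) in each 10% of the host transcript from 5′ to 3′ (x axis, % of transcript length). The first 30% (red) held 468, 969 and 1194 peaks, and the bars of the rest (grey) run up to 1982.

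In bases, the peaks of the first 30% began to appear about 2000 bp inside the gene. Their midpoints lay a median of 9868 bp from the start (interquartile range 5986 to 18556 bp, range 198 to 471385 bp). Just 3 midpoints were within 1000 bp of the start of their host transcript and 12 (0.456%) within 2000 bp. By 5000 bp the count was 428 (16.3%) and by 10000 bp it was 1334 (50.7%). The most 5′ peak of each host gene had a median distance of 7190 bp (95% interval of the median 6987 to 7512 bp). A small share, 175 peaks (6.65%), lay within 1000 bp of some assembled transcript start, but 22 of them (0.836%) were near a start with a gene name. For middle peaks these shares were 6.79% and 0.684%, and for last-part peaks 7.80% and 0.633%.

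The share of host transcripts covered by any DNMT3B peak under 10000 bp showed the same step. It was 4.28% at 5 kb upstream, 0.557% at 1 kb upstream and 0.501% at the start. It was 0.668% at 1 kb, 3.39% at 2 kb, 14.8% at 3 kb and 26.9% at 4 kb downstream, and 36% at 6.5 kb. The share was 29.5% at 10 kb and 23.3% at 20 kb. Because host genes were chosen for a peak in this stretch, the height of their curve follows from the choice. Genes that held DNMT3B peaks only in other parts had been chosen for lacking a midpoint in the first 30%, so their low coverage near the start follows from the choice as well (0.0282% at the start and 0.704% at 2 kb). All named genes of 2000 bp or more, which were not chosen by any peak, had a coverage of 0.122% at the start, 0.498% at 2 kb, 5.94% at 5 kb, 6.71% at 10 kb and 6.2% at 20 kb.

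**Figure D2:**
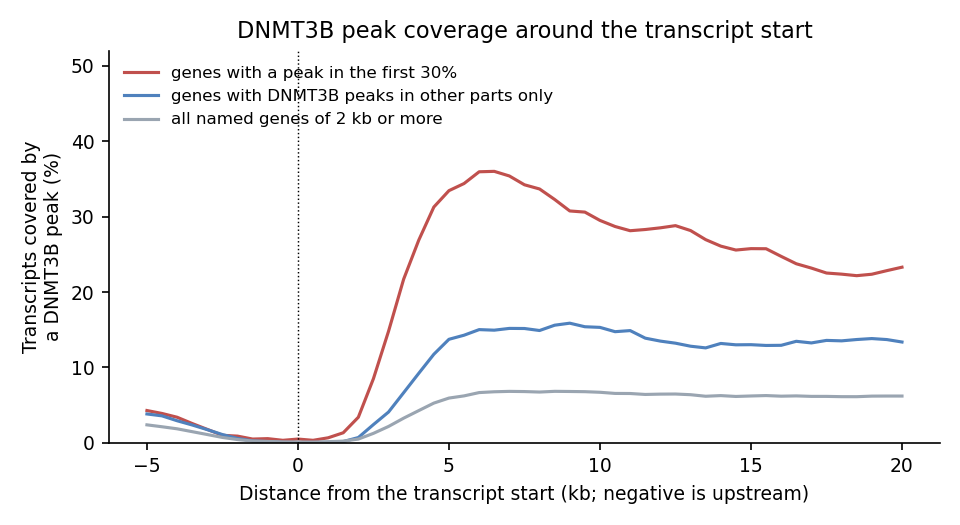
Share of transcripts covered by a DNMT3B peak under 10 kb (y axis, %) by distance from the transcript start (x axis, kb, in steps of 500 bp), for host genes (red), genes with peaks in other parts only (blue) and all named genes of 2 kb or more (grey). All 3 curves are near 0 at the start, and the red curve reaches 36% at 6.5 kb.

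The peaks lay almost all in introns, and fewer than by length lay in intron 1. The midpoint was in an intron for 2511 peaks (95.4%, 94.6% to 96.2%) and in an exon for 120 (4.56%). Exons held 5.70% of middle peaks and 15.2% of last-part peaks. Intron 1 held 347 peaks (13.2%, 11.9% to 14.5%), although it made up 31.9% of the length of the first 30% of host transcripts. Intron 2 held 29.5% of the peaks and 20.6% of the length, intron 3 held 19.8% and 13.6%, and intron 4 held 12.1% and 8.88%. Intron 5 (6.01% of peaks, 5.62% of length) and introns from 6 on (14.9% and 16.1%) held shares close to their length. Exon 1 held the midpoint of 4 peaks.

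**Figure D3:**
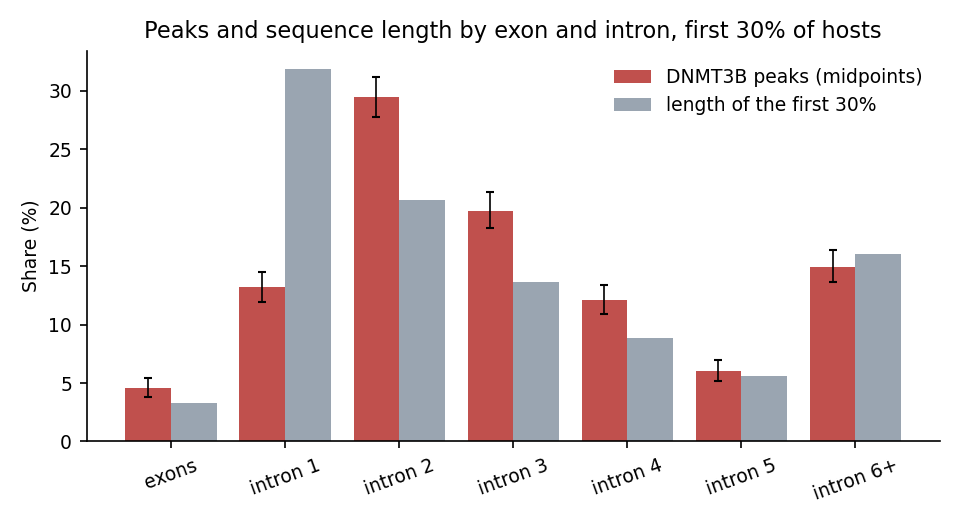
Share of DNMT3B peak midpoints in the first 30% of host transcripts (red, with 95% Wilson intervals, n = 2631 peaks) beside the share of the length of that stretch (grey) for exons and each intron number (x axis), in % (y axis). Intron 1 held 13.2% of peaks and 31.9% of length, and intron 2 held 29.5% and 20.6%.

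How far in the most 5′ peak lay went with the length of intron 1. Of 1796 host genes with at least 2 exons in the transcript, 1500 (83.5%) had the midpoint of their most 5′ peak past the start of exon 2, and in 1232 the whole peak lay past it. Where intron 1 was under 2000 bp this held for 551 of 552 genes (99.8%), with a median distance of 5702 bp from the start. For an intron 1 of 2000 to under 5000 bp it held for 463 of 483 genes (95.9%, median 6367 bp), and for 5000 to under 10000 bp for 264 of 343 (77.0%, median 9137 bp). For an intron 1 of 10000 bp or more it held for 222 of 418 genes (53.1%), and the median distance was 16557 bp. A long intron 1 leaves less of the first 30% beyond exon 2, so part of this order follows from the limit of 30% itself. Distances were also limited to 30% of the transcript length, which includes intron 1. Just 12 of the 2631 midpoints lay within 2000 bp of a start, so the share for the shortest introns was nearly fixed beforehand. Among the 1664 genes whose exon 2 began inside the first 30%, the share was 90.1%.

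The 5 peaks nearest to a start were in MGC27345 (198 bp), NPIPB6 (477 bp), SLFNL1-AS1 (811 bp), BCAN (1268 bp), which encodes the brain matrix proteoglycan brevican, and RIT1 (1543 bp), a RAS-related GTPase gene. The SLFNL1-AS1 peak, at chr1:41479771-41482375 (hg19), covered exon 1, and the ARMC9 peak, at chr2:232070572-232074581, covered the start with its midpoint 1664 bp into intron 1. NPIPB6 and LOC613037 belong to families of near-identical copies on chromosome 16, so reads of 1 copy may have been placed on another. The 5 peaks farthest from a start all lay in NBPF20, at 450410 to 471385 bp in an assembled transcript of 2320934 bp, and the NBPF genes are also near-identical copies.

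The peaks of the first 30% had nearly the same authors' score as those elsewhere in genes. This score is the authors' own value per peak, and the sources used here do not say which kind it is. The median was 3.38 in the first 30% (interquartile range 3.23 to 3.56, range 2.58 to 4.66), 3.40 in the middle and 3.38 in the last part. Width had a median of 2335 bp in the first 30% (2260 to 2424 bp, 95% interval), 2458 bp in the middle (2407 to 2505 bp) and 2300 bp in the last part (2243 to 2362 bp). Within the first 30%, the median score was 3.35, 3.37 and 3.39 and the median width was 2239, 2257 and 2462 bp in the 3 stretches of 10% from the start.

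The 10 highest scores belonged to peaks in introns 1 to 9 of genes with varied roles. The highest, 4.66, was the peak at chr11:34940670-34942615 (hg19) in intron 1 of PDHX, a subunit gene of the pyruvate dehydrogenase complex, with its midpoint 3966 bp from the start. A peak of 307 bp in intron 3 of FAM227A, at chr22:39040322-39040628, had a score of 4.58. CDK12, a kinase that phosphorylates the tail of RNA polymerase II, held a peak with a score of 4.57 at chr17:37628262-37630098, in intron 2 and 11416 bp from the start. NDUFB6, a subunit gene of respiratory complex I, had 4.47 in intron 1, and its peak was 3983 bp from the midpoint of the nearest ZBTB24 peak. KDSR, an enzyme of ceramide synthesis, had 4.46 in intron 2. CCT2, a subunit gene of the TRiC chaperonin, had 4.45 at chr12:69981468-69986178, in intron 7 and 4615 bp from the start. The others were PANK4 (4.44), the ciliary transport gene IFT81 (4.38), the ribosome assembly ATPase gene MDN1 (4.34) and the RNA helicase gene DHX30 (4.33). Of these 10 genes, IFT81 held 4 peaks, the other 3 with scores of 2.99 to 3.32.

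At the limits of the rule, the peaks just inside 30% lay in ZMYM2 (29.991%), CPNE3 (29.985%) and STXBP3 (29.981%), with scores of 3.36, 2.94 and 3.43. Those just outside lay in UBAP2 (30.02%), the checkpoint kinase gene CHEK1 (30.03%) and HDGFRP2 (30.06%), with scores of 3.05, 3.21 and 3.63. The widest peaks inside the width limit were in TMEM209 (9999 bp), SAMD4B (9982 bp) and TRIM66 (9908 bp). The narrowest of the left-out wide peaks were in DHX34 (10083 bp), STK38 (10087 bp) and HMGXB3 (10173 bp).

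Most host genes held 1 peak in the first 30% and further peaks downstream. There was 1 such peak in 1261 host genes (70.2%), 2 in 364 (20.3%), 3 in 109 (6.07%) and 4 or more in 63 (3.51%). A DNMT3B peak in the rest of the transcript was present in 1413 host genes (78.6%, 76.7% to 80.5%), with peaks in all 3 parts in 775 (43.1%), in the first and middle parts in 420 (23.4%) and in the first and last parts in 218 (12.1%). Read the other way, 33.6% of the 3556 genes with a middle peak and 29.6% of the 3360 genes with a last-part peak were host genes. The first 30% held the gene's peaks under 10000 bp alone in 384 host genes (21.4%), of which 49 also held a peak of 10000 bp or more. The 531 peaks of these 384 genes had a median score of 3.33 (3.31 to 3.35, 95% interval) and a median width of 1930 bp (1776 to 2117 bp). The 2100 peaks of the other host genes had a median score of 3.39 (3.38 to 3.40) and a median width of 2456 bp (2354 to 2545 bp). Several peaks of 1 gene are not independent, so these intervals are too narrow.

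The genes with the most peaks in their first 30% were long. VPS13D, a gene of lipid transport between membranes with a transcript of 282003 bp, held 10 of them between 5570 and 78903 bp from its start, with scores of 3.04 to 3.93, besides 9 middle peaks and 1 last-part peak. TRAPPC9, a vesicle trafficking gene, held 9 in a transcript of 726093 bp and no peak under 10000 bp in the rest. INADL (now PATJ), a cell polarity scaffold gene, held 8 with scores of 3.12 to 4.07. PARN, which encodes a deadenylase that shortens poly(A) tails, held 7, and 0 in the rest of its transcript. ATM, a kinase of the DNA damage response, held 7 in introns 4 to 15, 3 middle and 2 last-part peaks. MTOR, a kinase of nutrient signalling, held 7 in introns 4 to 19, 5 middle and 8 last-part peaks. TBCD, a tubulin folding cofactor gene, and PCBP1-AS1, an antisense RNA gene, held 7 each. MIR548AZ and RNU6-28P also held 7 each, but these are small RNA names on long assembled transcripts (508372 and 219545 bp), and their peaks also lay in MTHFD1, TUBGCP4 or TP53BP1. In all, 32 peaks lay under 10 such small RNA names. For 115 peaks (4.37%) the midpoint lay in another named gene as well, 42 of them in a gene on the opposite strand, and in 85 cases beyond the first 30% of that other gene.

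Host genes were longer than genes at large. The longest transcript had a median of 51620 bp in host genes and 23706 bp in all 22094 named genes of 2000 bp or more. Genes with middle peaks (39654 bp) and genes with last-part peaks (49448 bp) were also longer than genes at large. Of named genes, 8.13% were hosts. Genes with a longest transcript of 2000 to under 5000 bp held no such peak in 2740 genes, where 3 counts would be a share of 0.109%. The share was 0.219% at 5000 to under 10000 bp, 2.98% at 10000 to under 20000 bp, 13.2% at 20000 to under 50000 bp and 17.3% at 50000 to under 100000 bp, and 11.5% above that. The shortest host transcripts were those of LRFN1 (8520 bp), RBM42 (8608 bp) and the Polycomb gene CBX2 (9473 bp).

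By chromosome, the share of named genes that were hosts was highest on chromosome 17 (140 of 1209, 11.6%, 9.90% to 13.5%) and lowest among autosomes on chromosome 19 (63 of 1434, 4.39%, 3.45% to 5.58%). For these 1209 and 1434 named genes, the whole DNMT3B list held 1239 and 529 peaks. The order of these chromosomes was thus not particular to the first 30%. No peak of the first 30% lay on X, where 0 of 875 named genes were hosts, and the whole DNMT3B list held 17 peaks on X. Inside the peaks lay 8 miRNA genes of the assembled annotation, each in an intron from intron 2 on. Among them were MIR1266 in MYO5C, MIR4315-2 in PLEKHM1P, MIR548AR in CDC16, MIR5586 in WAC, MIR6820 in POLR2F, MIR6868 in EXOC7 and MIR6878 in TARS2.

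Across 24 gene lists, host genes were most frequent among genes of DNA replication and S phase, with 17 of 35 (48.6%, 33.0% to 64.4%), beside 8.13% of all named genes. Of the same 35 genes, 16 held a middle peak and 17 a last-part peak, beside 3556 and 3360 of all 22094 named genes. The median longest transcript of this list was 24380 bp, near that of all genes. Its hosts were MCM2, MCM5 and MCM6 of the replicative helicase, its loading and activation factors ORC1, ORC2, MCM10 and CDC45, the clamp loader genes RFC3 and RFC4, the polymerase genes POLA2, POLD1 and POLE, RRM1 for nucleotide supply, CCNE1 and CDC25A of the G1/S switch, and the histone chaperone genes CHAF1A and CHAF1B. The CCNE1 peak had the highest score of these (4.09) and lay 2308 bp from the start, in intron 4. The MCM5 peak (3.85, intron 4) was 5245 bp and the ORC2 peak (3.81, intron 4) 8188 bp from the start. The mitosis and G2 list had 11 hosts of 30 (36.7%), among them ECT2 (score 3.69), KIF2C (3.60), TPX2 (3.52) and TOP2A (3.47), at a median longest transcript of 25428 bp, and 17 held a middle and 11 a last-part peak.

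The repair, histone methylation and remodeller lists hold long genes, with median longest transcripts of 63763, 99896 and 86080 bp, against 23706 bp for all named genes. Of 23 colorectal tumour suppressor and mismatch repair genes, 9 were hosts (39.1%), 9 held a middle and 9 a last-part peak. MSH3 held 4 peaks with scores of 3.34 to 3.86, PMS1 held 2 and PMS2 held 1 (3.84), where near-identical copies make the placement uncertain. BRCA1 held 1 peak (3.19), 18829 bp from its start in intron 3. POLE and POLD1 stand on this list and on that of S phase. Of 23 enzymes that set or remove methyl marks on H3K36 and H3K4, 9 were hosts (39.1%), while 16 held a middle and 17 a last-part peak, with the highest first-part scores in NSD1 (4.06), an H3K36 methyltransferase, KMT2D (3.97), SETD1A (3.92) and KDM2A (3.55). Of 25 SWI/SNF and CHD remodeller genes, 8 were hosts (32.0%), while 15 held a middle and 13 a last-part peak, and the hosts included SMARCC2 (3.94), SMARCC1 (3.80), BRD9 (3.80) and EP400 (3.78). Polycomb and H3K9 methylation enzymes had 5 of 24 (20.8%), with EHMT2 (3.70), SETDB1 (3.63), SUZ12 (3.59) and EHMT1 (3.27) ahead, while 8 held a middle and 7 a last-part peak. Among 21 genes of ICF syndrome and DNA methylation, 3 were hosts (14.3%), with an interval of 4.98% to 34.6% that includes the 8.13% of all genes: DNMT1, the maintenance methyltransferase, with scores of 3.68 and 3.42, MBD1 with 3.30, and the remodeller HELLS with 3.05 and 3.10. ZBTB24, CDCA7 and DNMT3B itself were not hosts.

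The other lists were more varied. Ubiquitin ligases and proteases had 15 hosts of 37 (40.5%), membrane trafficking 11 of 33 (33.3%), PI3K, AKT and mTOR genes 6 of 22 (27.3%), epithelial junction and polarity 7 of 29 (24.1%) and cytoskeleton 8 of 37 (21.6%). In the same order, 22, 25, 6, 9 and 24 of their genes held a middle peak and 29, 19, 9, 14 and 30 a last-part peak. These lists hold long genes, with medians of 49508 bp (junction and polarity) to 162110 bp (cytoskeleton). AP2B1, an adaptor of clathrin-coated vesicles, held 5 peaks, and BIRC6, a ubiquitin ligase gene, held 7. Splicing factors had 7 of 37 (18.9%), interferon-stimulated genes 6 of 41 (14.6%), the Hippo pathway 3 of 21 (14.3%), receptor tyrosine kinases and RAS-MAPK genes 4 of 32 (12.5%), and nuclear receptors and coactivators 3 of 28 (10.7%). Except for splicing factors, the intervals of these lists include the 8.13% of all named genes. In the same order, 19, 7, 7, 11 and 7 of their genes held a middle peak and 10, 5, 13, 15 and 8 a last-part peak. Solute carriers had 21 of 353 (5.95%) and zinc finger genes named ZNF 29 of 559 (5.19%). TGF-beta and BMP genes had 1 of 21 (SMAD3, interval 0.846% to 22.7%) and Wnt genes 1 of 35 (TCF7L2, 0.506% to 14.5%). Both intervals include the 8.13% of all named genes. In the same order, 8 and 6 of their genes held a middle peak and 9 and 10 a last-part peak. The TGF-beta and BMP list had a median longest transcript of 86311 bp. Cytosolic ribosomal protein genes (0 of 71), HOX genes (0 of 35) and long intergenic RNAs named LINC (0 of 806) had no host, where 3 counts would be 4.23%, 8.57% and 0.372%. The ribosomal protein and HOX genes are short (medians 4754 and 3227 bp), so their counts of 0 were largely fixed beforehand by the limit of 30%. The LINC genes had a median of 16974 bp. Over all named genes the host share varied with transcript length, but the lists did not all follow that order. The S phase list had 48.6% at a median of 24380 bp, and the cytoskeleton list 21.6% at 162110 bp. The part of transcript length in these shares was not tested.

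**Figure D4:**
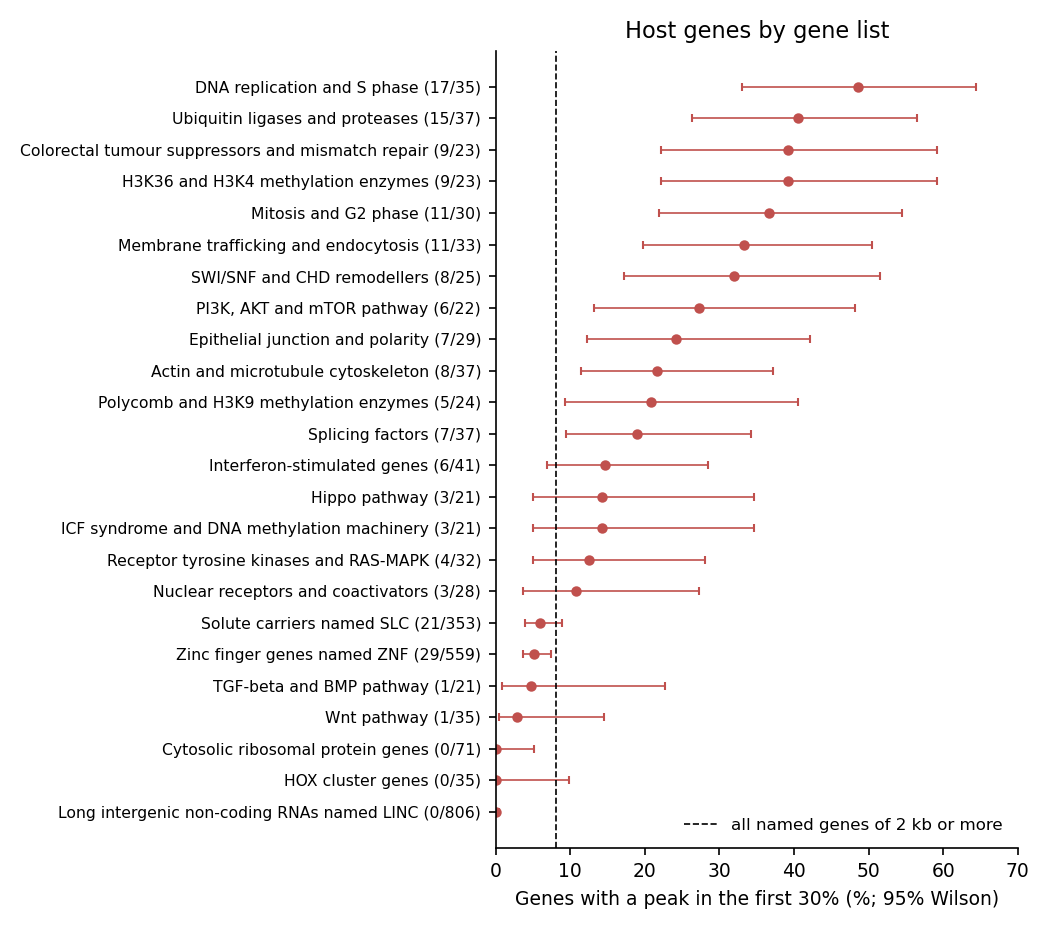
Share of the genes of each list that held a DNMT3B peak in the first 30% (x axis, %, points with 95% Wilson intervals), with hosts and genes counted in brackets after each list (y axis). The dashed line is the share over all named genes, 8.13%, and DNA replication and S phase stands at 48.6%.

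For each list, the hosts with the highest-scoring peaks are given with the intron that held the peak or its distance from the start, where shown. Among ubiquitin genes, the ligase genes UBR1 (score 3.78, intron 4) and CBL (3.78, intron 2) and the cullin gene CUL5 (3.73, intron 2) were among the hosts with the highest scores, with midpoints 26986 to 32798 bp from the start. Among trafficking genes, these were AP2B1 (4.09, intron 4), VPS13D (3.93, intron 6), AP3D1 (3.82, intron 2), a subunit gene of the AP-3 adaptor, and SEC24A (3.77, intron 4), a COPII coat gene. In the PI3K, AKT and mTOR list, PIK3CB, a catalytic subunit gene of PI3K, had 3.70, MTOR 3.68, its partner RPTOR 3.59 and the transcription factor gene FOXO3 3.34. Among junction and polarity genes, INADL had 4.07, the desmosome gene PKP2 3.89 in intron 1, DLG1 3.70 and the tight junction gene OCLN 3.59. Splicing factors had PRPF6 (3.79) at 3754 bp and SF3A3 (3.73) at 4384 bp from the start, and DHX15 (3.40) and PRPF19 (3.28). The nuclear receptor genes PPARD (3.97) and PPARA (3.89) both held their peak in intron 2, and the acetyltransferase gene EP300 (3.14) in intron 1. Of the Hippo pathway, the kinase genes LATS2 (3.57) and STK4 (3.43) and the coactivator gene WWTR1 (3.30) were hosts, and STK4 held 4 peaks. Of receptor tyrosine kinases and RAS-MAPK genes, MAP2K2 (3.61), EPHB4 (3.28), NF1 (3.23) and GRB2 (2.97) were hosts. SMAD3 (3.09, intron 1) and TCF7L2 (2.96, intron 4) were the hosts of their lists. The highest scores among zinc finger genes were in ZNF767P (4.26), ZNF16 (3.98), ZNF131 (3.83) and ZNF410 (3.79), and among solute carriers in SLC12A2 (3.95), SLC38A10 (3.68), SLC37A3 (3.66) and SLC22A5 (3.62).

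No peak of the first 30% overlapped a ZBTB24 peak, 0 of 2631, where 3 counts would be a share of 0.114%. Overlaps were also rare elsewhere, with 1 among the middle and 3 among the last-part peaks. The nearest ZBTB24 peak was a median of 144956 bp away, and 131 peaks (4.98%) had 1 within 10000 bp. At the level of genes, 135 of the 1797 host genes (7.51%, 6.38% to 8.82%) had a ZBTB24 peak within 1000 bp of a transcript start. The share was 6.72% (5.94% to 7.59%) for genes with middle peaks and 6.67% (5.87% to 7.56%) for genes with last-part peaks, so the intervals overlap. It was 4.26% (4.0% to 4.53%) for all named genes.

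Expression values are FPKM (fragments per kilobase of transcript, scaled to library size), 1 pooled value per group, so no spread between libraries can be given. A locus with several gene symbols counts once, since its reads cannot be assigned to 1 gene, and whether counting used the strand is not stated. In such bulk libraries, fewer cells with a transcript and less of it per cell cannot be told apart. Each table lists a selection of loci, with absolute log2 fold changes of at least 0.50 for the knockdown and FLAG-ZBTB24 and at least 1 for the knockout, so an absent gene says nothing on its change. The knockdown table also stops at a p of 0.0549, so its loci and their counts by direction were already selected on p, while that of FLAG-ZBTB24 runs to a p of 0.839. ZBTB24 is not listed in the knockdown table and DNMT3B not in the knockout rows, so neither target could be checked there. Of 16 marker genes of colon epithelium, mesenchyme, leukocytes and endothelium, 4 were listed in any table, and 0 were host genes. In the authors' deposited table the epithelial CDH1 stood at 23.2 FPKM in shZBTB24 and 46.3 FPKM in shNT libraries, and CDX2 at 18.8 and 6.90 FPKM in the same order. The mesenchymal VIM stood at 629 FPKM in the knockout library and 3.80 FPKM in the wild type in the authors' deposited table. The epithelial KRT20 was also higher there, at 1.49 and 0.558 FPKM in the same order. The part of such differences in the knockout values below was not tested. CDH1 (42.5 and 29.2 FPKM), KRT20 (1.24 and 0.455 FPKM) and VIM (0.716 and 0.487 FPKM) were listed for FLAG-ZBTB24 and FLAG-only libraries. None of these passed a q under 0.05 in the authors' deposited table.

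After ZBTB24 knockdown, host genes that changed included interferon-stimulated and S phase genes that rose, and a smaller set that fell. The authors' deposited table listed 185 host loci, of which 37 passed its q under 0.05 (20%), beside 22.0% of all 1965 listed loci. Of the 185 host loci, 27 rose, beside 240 of all 1965 listed loci (12.2%), and 10 fell, beside 193 of 1965 (9.82%). In direction, 123 of the 185 were higher in shZBTB24, with a median log2 fold change of 0.59, and 1081 of all 1965 were higher, with a median of 0.55. For loci with middle peaks 89 of 396 passed (22.5%), and for last-part peaks 90 of 405 (22.2%), and these sets share genes with the hosts. Host loci were also more highly expressed than the table at large. Their medians were 17.1 FPKM in shZBTB24 and 14.6 FPKM in shNT libraries, against 8.69 and 8.07 FPKM over all listed loci. In the same order, loci with middle peaks had medians of 17.7 and 15.0 FPKM and loci with last-part peaks 19.1 and 16.9 FPKM. The labels do not state whether the hairpin libraries are from different cultures, so q measures only the spread between these libraries.

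The largest rises among host loci were in interferon-stimulated genes. PARP9, an ADP-ribosyltransferase of the interferon response, had 27.6 FPKM in shZBTB24 and 6.94 FPKM in shNT libraries in the authors' deposited table (a log2 fold change of 1.99, q = 0.00493). PARP14 had 10.1 and 2.97 FPKM (1.76), and the helicase gene DDX60 9.36 and 3.0 FPKM (1.64), in shZBTB24 and shNT in the authors' deposited table. These 3 genes held their peaks in introns 3 to 5 or in exon 4. SP110, SP100 and HERC6 rose with log2 fold changes of 1.41, 1.33 and 1.29 in the authors' deposited table. Of the 6 host genes on the interferon list, 6 were listed and 5 rose, while HERC5 stood at 8.17 FPKM in shZBTB24 and 5.59 FPKM in shNT (q = 0.284). This list is known to rise in this comparison, so its count is no independent evidence.

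Of the 17 S phase host genes, the authors' deposited table listed 8 loci. All 8 had higher values in shZBTB24, and 3 rose, while 1081 of all 1965 listed loci were higher and 12.2% rose. The S phase list was also chosen with earlier results of these data known, so its count is no independent evidence. CDC25A, a phosphatase that activates cyclin-dependent kinases, had 4.22 FPKM in shZBTB24 and 1.40 FPKM in shNT libraries (log2 fold change 1.60, q = 0.00493, the authors' deposited table). MCM10 had 4.05 and 1.88 FPKM (1.10, q = 0.0206) and MCM5 15.3 and 8.27 FPKM (0.89, q = 0.0427) in shZBTB24 and shNT in the authors' deposited table. MCM6, CCNE1, POLA2 (a locus shared with CDC42EP2), CHAF1B and MCM2 were listed with log2 fold changes of 0.56 to 0.75 and did not pass in the authors' deposited table. IFT81, whose first peak was among the 10 highest scores, had 6.22 FPKM in shZBTB24 and 2.72 FPKM in shNT libraries in the authors' deposited table (1.19, q = 0.00493). The locus of CFAP44 and SPICE1 rose with 1.40 (q = 0.0316) in the same authors' deposited table.

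The rises past the threshold also took in genes outside these lists, named after their values were seen. PSMA3, a proteasome subunit gene, had 122 FPKM in shZBTB24 and 61.6 FPKM in shNT libraries in the authors' deposited table (0.98, q = 0.0221). HAT1, a histone acetyltransferase gene, had 51.9 and 26.7 FPKM (0.96, q = 0.00823), and MYBL2, a transcription factor of the cell cycle, 17.9 and 9.47 FPKM (0.92, q = 0.0404), in shZBTB24 and shNT in the authors' deposited table. TAP2, a peptide transporter of antigen presentation, had 23.3 and 12.5 FPKM (0.90, q = 0.0427) and LSM3, of the splicing machinery, 116 and 63.1 FPKM (0.88, q = 0.0221), in the same order in the authors' deposited table. Of the mismatch repair and tumour suppressor hosts, BRCA1 stood at 3.39 and 1.84 FPKM in shZBTB24 and shNT libraries in the authors' deposited table and did not pass (q = 0.123).

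Of the host loci, 10 fell. The locus of CIT, a kinase of cytokinesis, with MIR1178 had 3.60 FPKM in shZBTB24 and 8.44 FPKM in shNT libraries in the authors' deposited table (a log2 fold change of -1.23, q = 0.00493). The scaffold gene IQGAP3 had 2.96 and 6.60 FPKM (-1.16) in shZBTB24 and shNT in the authors' deposited table. SLC7A11, a cystine transporter, had 2.81 and 6.25 FPKM (-1.15), and CD55, an inhibitor of complement, 82.5 and 169 FPKM (-1.04), in the same order in the authors' deposited table. AKNA (-1.03), COMMD10 (-0.87), the alanyl-tRNA synthetase gene AARS (-0.82), the condensin gene NCAPD2 (-0.78) and the locus of TICAM2 and TMED7 (-0.71) were also among the 10 falls of the authors' deposited table. The 3 listed mitosis hosts, BUB1, TOP2A and KIF2C, were at -0.51, -0.54 and -0.74 and did not pass in the authors' deposited table.

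**Figure D5:**
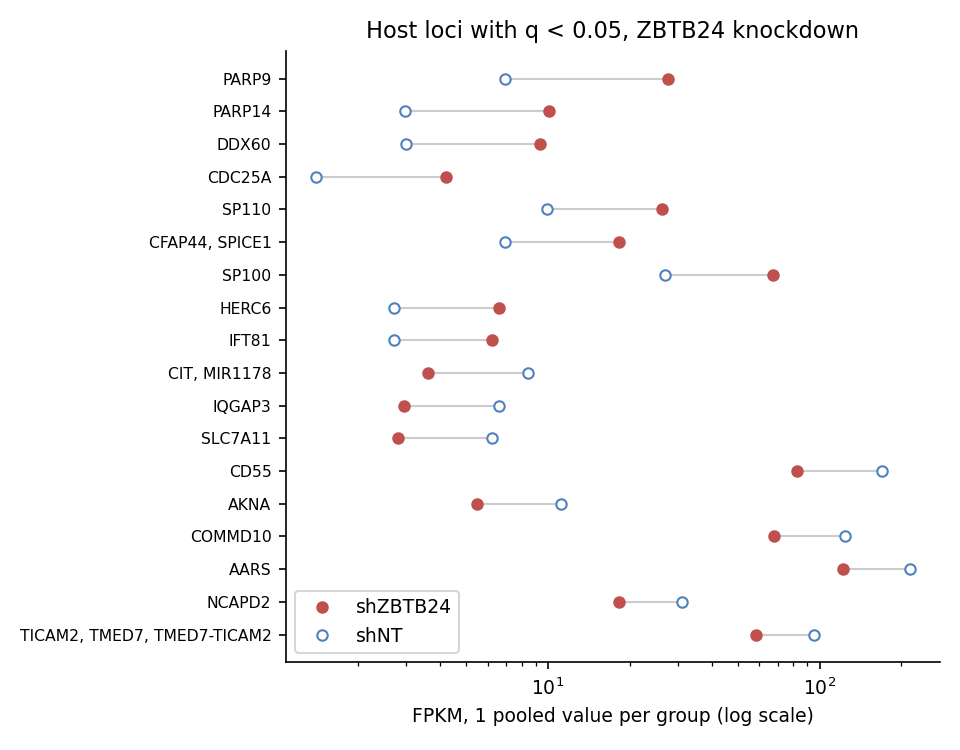
FPKM (x axis, log scale) in shZBTB24 (red, filled) and shNT (blue, open) libraries, 1 pooled value per group and no error, for 9 of the 10 largest rises and 9 of the 10 falls past q under 0.05 among host loci (y axis) in the authors' deposited table. PARP9 stood at 27.6 and 6.94 FPKM and CIT with MIR1178 at 3.60 and 8.44 FPKM in shZBTB24 and shNT.

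With FLAG-ZBTB24, no host locus passed. The authors' deposited table listed 122 host loci, of which 0 had a q under 0.05, beside 0.57% of all 1754 listed loci, and 4 had an unadjusted p under 0.05 (3.28%), beside 9.92%. Higher values in FLAG-ZBTB24 than in FLAG-only libraries were listed for 67 and lower values for 55 of these host loci. PARP9 stood at 5.55 FPKM in FLAG-ZBTB24 and 8.63 FPKM in FLAG-only libraries in the authors' deposited table (a log2 fold change of -0.64, q = 0.997). Of the others on the lists, PPARA stood at 4.54 and 2.92 FPKM and MDM4, an inhibitor of p53, at 14.2 and 9.67 FPKM in FLAG-ZBTB24 and FLAG-only libraries in the authors' deposited table.

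In the library labelled as the DNMT3B knockout, listed host loci were less far from wild type than the table at large. There was 1 library per group, so these differences have no replicate check. The authors' deposited table listed 52 host loci, all higher in the knockout, as were all 2243 loci under that label. A log2 fold change of at least 2 was reached by 13 (25%), beside 52.8% of all listed loci. The share was 18.6% of 129 loci with middle peaks and 20.7% of 111 with last-part peaks. Wild-type expression differed as well, with a median of 6.89 FPKM in host loci and 0.695 FPKM in all listed loci. That median was 6.92 FPKM in loci with middle peaks and 7.35 FPKM in loci with last-part peaks. The part of wild-type expression in the smaller share was not tested. PARP9 stood at 104 FPKM in the knockout and 5.16 FPKM in the wild type in the authors' deposited table (a log2 fold change of 4.34), HERC6 at 29.9 and 1.85 FPKM (4.01) and SP110 at 60.8 and 5.92 FPKM (3.36). HERC5 (3.22), PARP14 (2.84) and SP100 (2.55) were also past that fold in the authors' deposited table, and all 6 interferon-list hosts were. The interferon list was chosen with earlier results of these data known, so its count here is no independent evidence either. GUSBP1 (3.72), of a family with near-identical copies, the ubiquitin ligase gene RNF213 (2.57) and the fibronectin gene FN1 (2.23) were also among the 10 largest. The wild-type levels of PARP9 and PARP14 come from another table than their shNT levels, and whether both were normalised together is not known.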

How the data were processed

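ChIP-seq peaks were called with MACS2 and RNA-seq was processed with HISAT2, StringTie and Cufflinks on hg19, per the submitters' processing notes, which name no versions here. The use made of FLAG-only and input libraries in the peak calls is not stated in these sources. The authors deposited 1 merged peak list per factor with 1 score per peak, FPKM values pooled per group, their log2 fold change, and a p-value and q-value per locus. Depth behind peaks and FPKM values is unknown.

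Peaks were placed in the authors' deposited assembled annotation with Python 3.11.15 and pandas 2.3.3, and placement was checked on simulated transcripts. Shares carry 95% Wilson intervals and medians a 95% order-statistic interval. A host locus is a table locus whose symbols include a host gene; a call is the deposited q under 0.05, or a log2 fold change of at least 2 for the knockout. No test was run. The alternatives were other shares of the transcript, width limits, host transcripts, score and call thresholds. Named were the 10 highest scores, the 10 genes with most peaks, up to 10 called host loci per table and direction, up to 4 hosts per list by score, and the peaks at the limits and nearest to and farthest from a start. Other S phase, repair, trafficking and ubiquitin hosts, the uncalled list loci and the miRNA genes were named after their values were seen. The peaks and the 24 lists (5 by name pattern) were chosen with earlier results of these data known. Some genes are not reported here. The list symbol PATJ was matched as INADL. Sequence of the peaks themselves was not analysed here.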

Additional observations from a re-analysis of the deposited data

Results flagged for a closer look

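Data outside the comparisons held 1 further set of loci. In the knockout table, 1112 loci stand under the name DNMT3BKOshZB, to which none of the samples used here corresponds. Of these, 106 were host loci (9.53%), near the 8.13% of all named genes that were hosts. All 106 were lower than wild type in the authors' deposited table, as were all 1112, with a median log2 fold change of -1.26 over the host loci (range -3.11 to -1.01). Their median was 7.83 FPKM under that label and 18.9 FPKM in the wild type in the authors' deposited table. What that label means is not known. The knockout rows used above hold rises only and say nothing on falls.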

How the results depend on the processing

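Of 56 values under alternative settings, 37 were classed as the same as the values given above and 19 as moved. No fold change is recomputed by these settings, so none could reverse. With the first 20% of the transcript, 1437 peaks in 1093 host genes were taken, their median width was 2250 bp, their median distance 7869 bp, and 81% of hosts had a further peak downstream. With the first 40% these were 3980 peaks, 12229 bp and 74.7%. The share of hosts with a further peak was 81.8% with no width limit, and 72.9% for peaks under 5000 bp, which had a median score of 3.36 and width of 2036 bp. With scores at or above the median of the whole list, 1247 peaks in 999 hosts remained, with a median width of 2621 bp, a median distance of 9152 bp and 64.6% of hosts with a further peak. With the shortest named transcript as host, the median distance was 9139 bp. At a log2 fold change of at least 3, 5 host loci of the knockout table were past the fold. The shares in introns, the absence of ZBTB24 overlap and the counts of host loci called in the knockdown (52 at a q under 0.1) and with FLAG-ZBTB24 (0 at a q under 0.1) were among those that stayed close. No paired analysis was possible because the deposited values are pooled per group or merged over lines, and for the same reason no replicate could be left out.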
